A study of Mus musculus with 8 samples.

Results

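*Rgs9*, *Adora2a*, *Drd2*, *Gpr6*, *Pde10a*, *Ppp1r1b* and *Rasd2* are genes for which the striatum is the classical site of high expression. They were followed here in ribosome-associated mRNA pulled down from PV+ interneurons of the primary somatosensory cortex (S1). The 7 genes were chosen by name from the 45706 genes of the deposited tables, and all 7 passed the filter on low counts, as did 17495 genes in total. *Rgs9* was selected on its lower value after CNO in a likelihood ratio test of the same samples, and the other 6 were added as striatal genes. The question was whether they followed *Rgs9* from sample to sample, as varying amounts of striatal tissue in the dissected cortex would give. The difference between CNO and vehicle in these 7 genes had therefore been seen before they were chosen, and it is described here without a test.

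The study asked which mRNAs change in PV+ interneurons when their activity is raised. All mice were of the genotype PvalbFlp/+;Neurod6Cre/+, and all received at postnatal day 1 an adeno-associated virus (AAV) whose flox-fdio cassette encodes HA-RPL10a, a tagged ribosomal protein, together with the myc-tagged receptor hM3Dq. Flp switches this construct on and Cre removes it, so the design confines it to infected Pvalb-expressing cells that have no history of Neurod6, with the human synapsin promoter as driver. Mice of the CNO group received 5 injections of CNO, the ligand of hM3Dq, at 1 mg/kg over about 48 h, and mice of the vehicle group received vehicle on the same schedule. The labels give an age of postnatal day 42 to 70 and the methods one of 44 to 70. The infected cortex was dissected by the glow of co-injected fluorescent beads, and tissue of 4 brains was pooled for each of the 4 CNO and 4 vehicle samples. Replicates are numbered 1 to 4 within each group.

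Most neurons of the striatum are spiny projection neurons of 2 kinds. Neurons of the direct pathway carry the dopamine receptor D1, substance P and dynorphin, whereas those of the indirect pathway carry the dopamine receptor D2, the adenosine receptor encoded by *Adora2a*, GPR6 and enkephalin. Both kinds share an unusually rich cAMP signalling machinery, to which RGS9, PDE10A and DARPP-32 (encoded by *Ppp1r1b*) belong. Cortical neurons express several of these genes too, *Ppp1r1b*, *Rasd2* and *Pde10a* among them, so their mRNA in a cortical sample is not by itself a mark of striatal tissue.

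The samples held 44064161 to 49413273 counts in all, and at this depth 3 counts were worth 0.0607 to 0.0681 CPM. CPM are counts scaled to a common library size, here after normalization by the trimmed mean of M values (TMM). *Pvalb*, which defines the labelled cells, stood at 288 to 446 CPM in 7 of 8 samples and at 99.7 CPM in vehicle replicate 1. The activity marker *Fos* lay at 32.2 to 69.5 CPM in the CNO samples and at 11.3 to 15.8 CPM in the vehicle samples, with no overlap (0.789% of all genes had every CNO sample above every vehicle sample). No gene of the marker lists used below had 0 counts in any sample. *Slc17a7*, the vesicular glutamate transporter gene of pyramidal cells, reached 331 to 547 TPM, a level corrected for transcript length as well as depth. In such bulk samples, fewer cells of a type and less RNA per cell cannot be told apart.

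*Rgs9* encodes a regulator of G protein signalling of the R7 family, which shortens signalling through inhibitory G proteins downstream of dopamine and opioid receptors. The gene (ENSMUSG00000020599) lies on the minus strand of chromosome 11, between 109225355 and 109298129 of GRCm38. The counts are sums over its transcripts, and its retinal and striatal isoforms are not told apart. The 4 CNO samples held 11.7, 17.5, 16.0 and 23.2 CPM of *Rgs9* in order of replicate, and the vehicle samples 49.1, 21.5, 30.8 and 33.3 CPM. CNO replicate 1 was the lowest and vehicle replicate 1 the highest of all 8. The groups met at one point only, where CNO replicate 4 stood above vehicle replicate 2, so that 3 of 4 CNO samples fell below the lowest vehicle sample. The means were 17.1 ± 4.76 CPM in CNO samples and 33.7 ± 11.4 CPM in vehicle samples (SD, n = 4 each), and the fitted log2 fold change of CNO over vehicle was -0.98 with a standard error of 0.25. Without replicate 1 of both groups it was -0.59. In TPM, which also corrects for transcript length, the CNO samples held 9.47 to 17.2 and the vehicle samples 18.7 to 41.4, without overlap. *Pde10a*, *Ppp1r1b* and *Rasd2* did not overlap in TPM either. The share of all genes without overlap in TPM was not determined.

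The bases directly upstream of the transcription start are shown for *Rgs9* and for *Gpr6*, which is among the genes whose deviations are compared with those of *Rgs9* below. Both windows come from RefSeq on GRCm38.p6 and hold the 250 bases before the annotated start on the gene's own strand, here the minus strand for both. Capitals mark TATAAA and the reverse complement CCGCCC of the GC box GGGCGG in *Rgs9* (chr11:109298182-109298431), and the palindromic cAMP response element TGACGTCA in *Gpr6* (chr10:41072291-41072540).
Rgs9: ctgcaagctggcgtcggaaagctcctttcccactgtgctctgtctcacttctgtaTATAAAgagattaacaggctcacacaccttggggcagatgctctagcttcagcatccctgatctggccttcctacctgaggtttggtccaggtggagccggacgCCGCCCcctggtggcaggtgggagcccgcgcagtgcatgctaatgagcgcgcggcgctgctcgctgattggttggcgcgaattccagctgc
Gpr6: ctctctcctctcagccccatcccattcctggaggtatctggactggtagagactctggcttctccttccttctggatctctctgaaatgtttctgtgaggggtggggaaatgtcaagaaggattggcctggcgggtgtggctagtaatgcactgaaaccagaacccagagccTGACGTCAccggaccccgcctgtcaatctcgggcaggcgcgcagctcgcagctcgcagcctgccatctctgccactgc
In *Rgs9*, TATAAA spanned bases 195 to 190 before the start, and CCGCCC bases 91 to 86. In *Gpr6*, TGACGTCA spanned bases 78 to 71. Both strands were searched in 32817 windows of all genes, of which 12.4% held TATAAA, 32.7% GGGCGG and 1.55% TGACGTCA. RefSeq windows were used for 5 of the 7 genes, 6 windows in all because *Pde10a* has a pair of starts, and these held TATAAA once, GGGCGG in 3 windows and TGACGTCA once. The core letters TGACG, contained in the longer element, occurred in 17.7% of all windows and in 1 of the 6, and the AP-1 site TGANTCA occurred in 6.75% of all windows and in 0 of the 6. None of these letter strings was shared by all the windows, and a match is a description of the sequence only. *Adora2a* and *Ppp1r1b* were not analysed in this respect.

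*Adora2a*, *Drd2* and *Gpr6* encode the receptors that mark the indirect pathway. The adenosine receptor encoded by *Adora2a* and GPR6 raise cAMP, and the dopamine receptor D2 lowers it. *Adora2a* (ENSMUSG00000020178, chromosome 10, 75316877 to 75334784) stood at 0.848, 1.82, 2.18 and 4.50 CPM in the CNO samples and at 4.58, 3.29, 4.40 and 5.39 CPM in the vehicle samples. Again CNO replicate 1 was the lowest of all and CNO replicate 4 the highest of its group, above vehicle replicates 2 and 3. It had the widest range of the 7 genes, 6.35-fold between the lowest and highest sample, and a log2 fold change of -0.92 with a standard error of 0.39. *Drd2* (ENSMUSG00000032259, chromosome 9, 49340627 to 49408177) held 0.890, 1.94, 1.99 and 3.60 CPM in the CNO samples and 3.82, 1.41, 3.03 and 3.17 CPM in the vehicle samples. The groups overlapped widely, because vehicle replicate 2 lay below 3 CNO samples. Its log2 fold change of -0.44 had a standard error of 0.39, and the value was -0.01 without replicate 1 of both groups. *Gpr6* (ENSMUSG00000046922, chromosome 10, 41069977 to 41072285) held 0.954, 1.75, 1.5 and 1.85 CPM in the CNO samples and 3.18, 1.62, 2.68 and 2.91 CPM in the vehicle samples. Here 3 vehicle samples stood above every CNO sample, and vehicle replicate 2 stood among the CNO samples. The log2 fold change was -0.78 with a standard error of 0.27. These 3 receptors rested on few reads, 40 counts of *Adora2a*, 42 of *Drd2* and 45 of *Gpr6* in CNO replicate 1, and on 267, 171 and 144 counts at most.

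*Pde10a*, *Ppp1r1b* and *Rasd2* act inside the cell. *Pde10a* (ENSMUSG00000023868, chromosome 17, 8525372 to 8986648) encodes a phosphodiesterase that breaks down cAMP and cGMP. It reached 52.6, 43.2, 48.0 and 60.5 CPM in the CNO samples and 68.9, 52.2, 70.6 and 80.7 CPM in the vehicle samples. CNO replicates 1 and 4 exceeded vehicle replicate 2, and the other vehicle samples lay above all CNO samples. The log2 fold change was -0.42 with a standard error of 0.14. In TPM the groups separated, with 22.6 to 28.4 in CNO samples and 31 to 53.7 in vehicle samples, again with no share of all genes determined. The mean transcript length behind these TPM values, relative to the mean of the 8 samples, ran from 0.74 in vehicle replicate 1 to 1.27 in vehicle replicate 4, so the mixture of its 14 annotated transcripts was estimated differently between samples.

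*Ppp1r1b* (ENSMUSG00000061718, chromosome 11, 98348404 to 98357796) encodes DARPP-32, which inhibits protein phosphatase 1 once protein kinase A has phosphorylated it. Its levels were 53.2, 74.0, 65.6 and 81.2 CPM in the CNO samples and 125, 93.5, 89.3 and 89.4 CPM in the vehicle samples. All CNO samples were below all vehicle samples, which was so for 1 of the 7 genes in CPM and for 1.63% of all genes tested. The log2 fold change was -0.54 with a standard error of 0.15, and -0.30 without replicate 1 of both groups. Its exons overlap *1700003D09Rik* on the opposite strand, and reads of the pair cannot be told apart where the counting did not use strand. *Rasd2* (ENSMUSG00000034472, chromosome 8, 75213944 to 75224113), also called Rhes, encodes a small GTP-binding protein of the Ras family. It held 91.7, 84.6, 88.2 and 95.3 CPM in the CNO samples and 118, 98.2, 97.3 and 93.6 CPM in the vehicle samples. It varied least of the 7 genes, 1.40-fold between the lowest and highest sample, and CNO replicate 4 alone reached into the vehicle range. The log2 fold change was -0.18 with a standard error of 0.099.

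**Figure D1:**
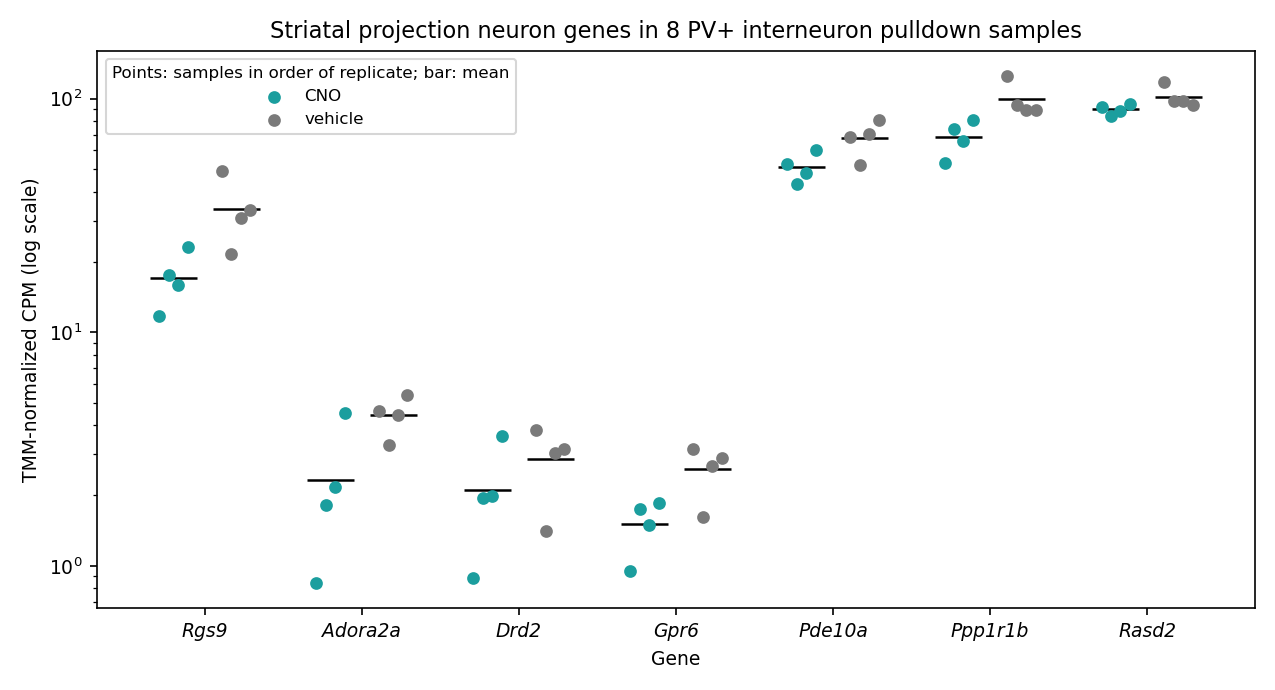
Normalised CPM (log axis) of the 7 striatal genes in each CNO sample (teal) and each vehicle sample (grey), with points in order of replicate from left to right and a bar at the group mean. CNO replicate 4 is the highest CNO point of every gene, CNO replicate 1 is the lowest in 5 of 7, and the groups are separate for *Ppp1r1b* alone.

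On a scale corrected for transcript length, the 7 genes formed a high and a low tier. *Ppp1r1b* was highest with a mean of 130 TPM over the 8 samples, followed by *Rasd2* at 79.9, *Pde10a* at 32.2 and *Rgs9* at 20.9 TPM. The indirect pathway receptors followed at 3.98 TPM for *Drd2*, 3.14 for *Adora2a* and 2.84 for *Gpr6*, and the ranges of these 3 overlapped. The range of *Rgs9*, 9.47 to 41.4 TPM, also overlapped that of *Pde10a*.

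All 7 log2 fold changes were below 0, with a median of -0.54, and 3 of them, *Rgs9*, *Adora2a* and *Gpr6*, were more than 1.5-fold lower. Of all genes tested, 49.6% were below 0, 2.51% were more than 1.5-fold lower and the median was 0.0014. With the quasi-likelihood test of edgeR, 0 of 17495 genes (0%) passed an adjusted p under 0.05, and 716 (4.09%) had an unadjusted p under 0.05. With the likelihood ratio test on robust dispersions, 12 genes (0.0686%) passed the 3 cut-offs of adjusted p, 1.5-fold change and mean TPM above 1. The 1 gene of these that was lower in CNO (0.00572%) was *Rgs9*, which is the value it was selected on and adds nothing to it. DESeq2 called 10 genes (0.0572%), with 1 lower (0.00572%), which was not one of the 7.

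A further comparison was made with 29 other striatal genes, of which 28 were found by name and 27 passed the filter. Their values did not enter the selection of *Rgs9*. The list was still chosen with earlier results of these data known, so it is not an independent check. Of the 27, 16 were lower and 11 higher in CNO, and the median log2 fold change was -0.10. Among the 14 not marked as also expressed in cortex, 7 were lower and 7 higher, with a median of -0.01. Their mean log2 CPM differed by -0.18 (exact permutation p = 0.371). Among the 13 also expressed in cortex, 9 were lower and 4 higher, with a median of -0.11. None passed an adjusted p under 0.05 with the quasi-likelihood test, the robust likelihood ratio test or DESeq2. The lowest adjusted p among them was 0.0519 with the robust likelihood ratio test. With the quasi-likelihood test, the lowest adjusted p among them was 0.817, whereas *Fos* had an adjusted p of 0.052. At an unadjusted p under 0.05 by the quasi-likelihood test, 4 were lower (2.65% of all genes) and 1 was higher (1.44% of all genes). The mean log2 CPM of the 27 genes was 4.11 ± 0.19 in CNO and 4.25 ± 0.14 in vehicle samples (SD, n = 4 each), a difference of -0.14 (two-sided exact permutation over 70 assignments, p = 0.257, adjusted over 8 lists 0.457). The sum of their TPM, with the untested *Isl1* included, was 1083 to 1227 in CNO samples and 1233 to 1455 in vehicle samples. More than any other gene, *Arpp21*, which is also expressed in cortical pyramidal cells, carried that sum with a mean of 474 TPM. It was followed by the tyrosine phosphatase gene *Ptpn5* at 108 TPM and the calcium-dependent phosphodiesterase gene *Pde1b* at 91.2 TPM.

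Genes of the 2 striatal pathways lay on both sides of 0. Among the 7 direct pathway genes tested, 2 were lower and 5 higher, with a median log2 fold change of 0.11. *Drd1*, the D1 receptor gene, stood at 20.6 to 35.1 CPM in CNO and 22.7 to 28.4 CPM in vehicle samples, with a log2 fold change of 0.01 and a standard error of 0.15. *Tac1*, the substance P precursor gene, had a value of 0.43, and *Pdyn*, the dynorphin precursor gene, one of -0.11. Both are among the 13 genes marked as also expressed in cortex, as is *Penk* below. *Isl1*, a transcription factor gene of direct pathway neurons, had 0 to 12 counts and was not tested. Among the 3 indirect pathway genes tested, *Penk*, the enkephalin precursor gene, held 14.5, 18.9, 21.2 and 29.5 CPM in the CNO samples and 31.6, 23.7, 38.9 and 40.4 CPM in the vehicle samples. Its log2 fold change was -0.68 with a standard error of 0.22, and CNO replicate 4 alone stood above the lowest vehicle sample. The zinc finger gene *Sp9* went the other way, at 15.3 to 25.6 CPM in CNO and 6.60 to 15.0 CPM in vehicle samples, without overlap (0.789% of all genes). Its log2 fold change was 0.73 with a standard error of 0.25, and it is also expressed in cortical interneurons. Of the 17 genes shared by both pathways or acting as regulators, 12 were lower, with a median of -0.11. *Meis2*, a homeobox gene, was the 1 of these without overlap, at 25.5 to 28.6 CPM in CNO and 29.5 to 39.6 CPM in vehicle samples (1.63% of all genes). The 4 genes that were lower at an unadjusted p under 0.05 were *Slc35d3* (log2 fold change -1.08), *Syndig1l* (-0.77), *Penk* and *Meis2* (-0.32), and were named after their values were seen. Exons of *Penk*, *Syndig1l* and *Sp9* overlap *A830012C17Rik*, *Gm48573* and *Cir1* on the opposite strand, with the same limit as for *Ppp1r1b*.

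**Figure D2:**
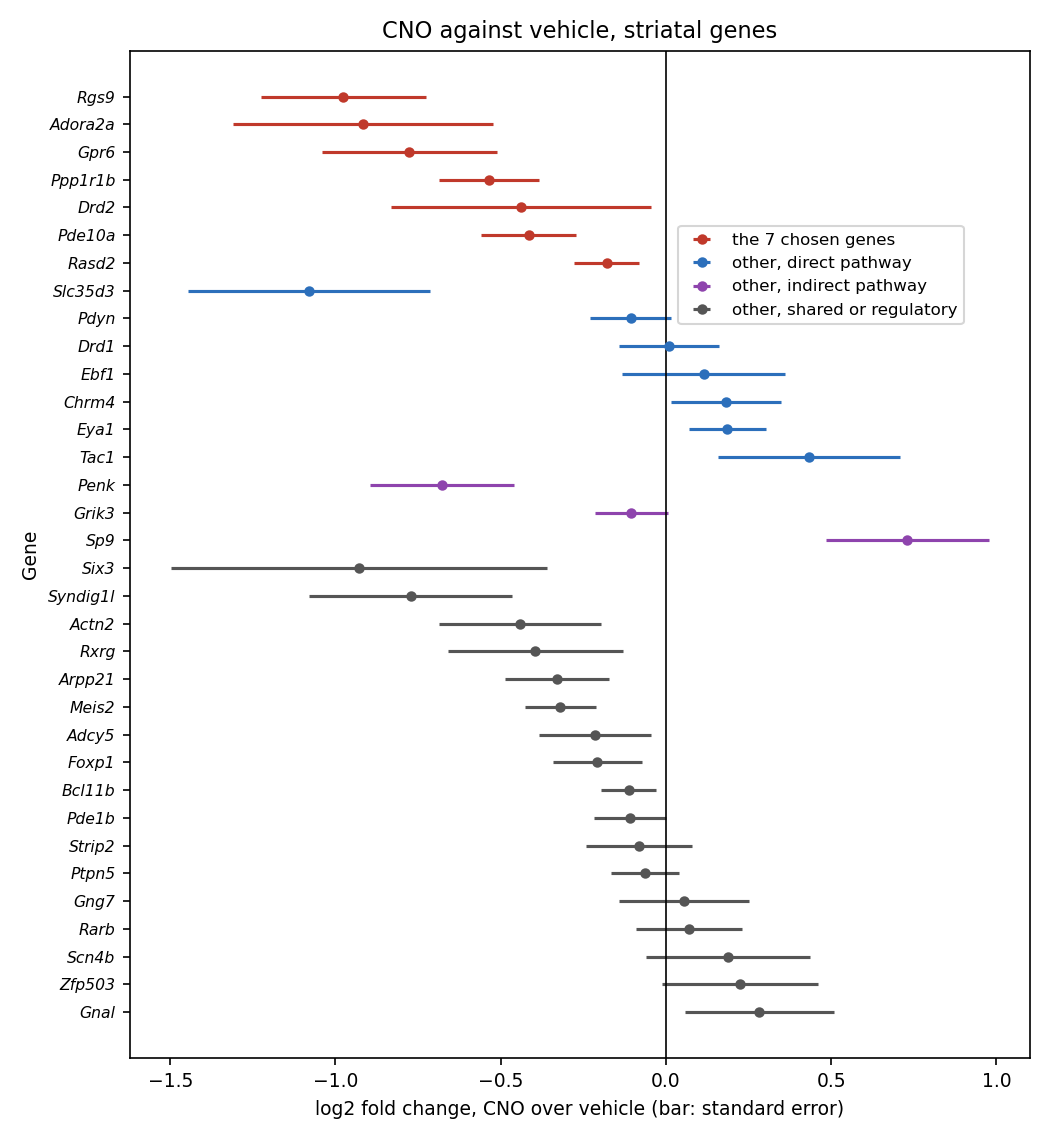
Log2 fold change of CNO over vehicle for the 7 chosen genes (red) and the 27 other striatal genes tested, divided into direct pathway (blue), indirect pathway (purple) and shared or regulatory genes (grey), with bars of 1 standard error. All 7 chosen genes lie left of 0, whereas the other genes lie on both sides, 16 left and 11 right.

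Whether the genes followed *Rgs9* was described within the groups. For each gene the group mean was subtracted from the log2 CPM of each sample, which removes the contrast that had singled out *Rgs9*, and the deviations were correlated with those of *Rgs9* over the 8 samples. The deviations of a sample share its library and depth, so r is given for single genes as a description. *Drd2* had the largest Pearson's r of the 6 (0.93), then *Gpr6* (0.92), *Ppp1r1b* (0.85), *Adora2a* (0.75), *Rasd2* (0.57) and *Pde10a* (0.51). Spearman's rho was 0.98 for *Gpr6*, 0.81 for *Ppp1r1b*, 0.79 for *Drd2*, 0.64 for *Adora2a*, 0.31 for *Rasd2* and 0.29 for *Pde10a*. The median r of the 6 was 0.80, against -0.10 over all genes tested. Of the 6, 4 had r above 0.7, as did 1.87% of all genes. The 21 pairs among the 7 genes all had positive r, from 0.04 for *Pde10a* with *Ppp1r1b* to 0.95 for *Drd2* with *Gpr6*, with a median of 0.60. Pairs among other genes were not examined.

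The order of the samples was also alike between genes. CNO replicate 4 was the highest CNO sample in 7 of 7 genes, and CNO replicate 1 the lowest in 5, the exceptions being *Pde10a* and *Rasd2*. In the vehicle group, replicate 1 was highest in 5 genes (all but *Adora2a* and *Pde10a*) and replicate 2 lowest in 5 (all but *Ppp1r1b* and *Rasd2*). The samples at the ends of both groups were thus largely the same from gene to gene. The share of all genes with the same order was not determined. The mean of the PV+ interneuron markers was also highest of the CNO group in replicate 4, at 7.69 log2 CPM. It was lowest in replicate 2 of the CNO group (6.84) and in replicate 1 of the vehicle group (5.72).

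Among the 27 other striatal genes the median r with *Rgs9* was 0.34, and 17 were positive and 10 negative. Above 0.7 lay *Slc35d3* (0.89), *Syndig1l* (0.89) and the retinoid receptor gene *Rxrg* (0.75), that is 3 of 27, and *Penk* lay just below at 0.69. *Slc35d3*, a transporter gene of direct pathway neurons, held 0.403, 0.592, 0.814 and 0.863 CPM in the CNO samples and 2.01, 0.662, 1.25 and 1.74 CPM in the vehicle samples, from 19 to 90 counts. *Syndig1l*, also called capucin and rich in the striatum, held 2.31, 4.16, 4.09 and 7.11 CPM in the CNO samples and 8.77, 4.70, 7.98 and 8.76 CPM in the vehicle samples. In both, as in *Rgs9*, CNO replicate 1 was the lowest of its group, CNO replicate 4 the highest, and vehicle replicate 2 the lowest of the vehicle samples. *Drd1* (0.51) and the striatal adenylyl cyclase gene *Adcy5* (0.48) followed less closely. *Chrm4* (-0.57), the M4 muscarinic receptor gene, *Sp9* (-0.45), *Gnal* (-0.35), the gene of the olfactory and striatal G protein subunit, *Tac1* (-0.19) and *Pdyn* (-0.12) deviated against *Rgs9*. In vehicle replicate 1, the sample with most *Rgs9*, *Tac1* (-0.85), *Sp9* (-0.75) and *Gnal* (-0.69) deviated downward on the log2 scale together with the interneuron markers *Pvalb* (-1.38) and *Gad1* (-1.01). The part of interneuron content in these correlations was not tested.

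**Figure D3:**
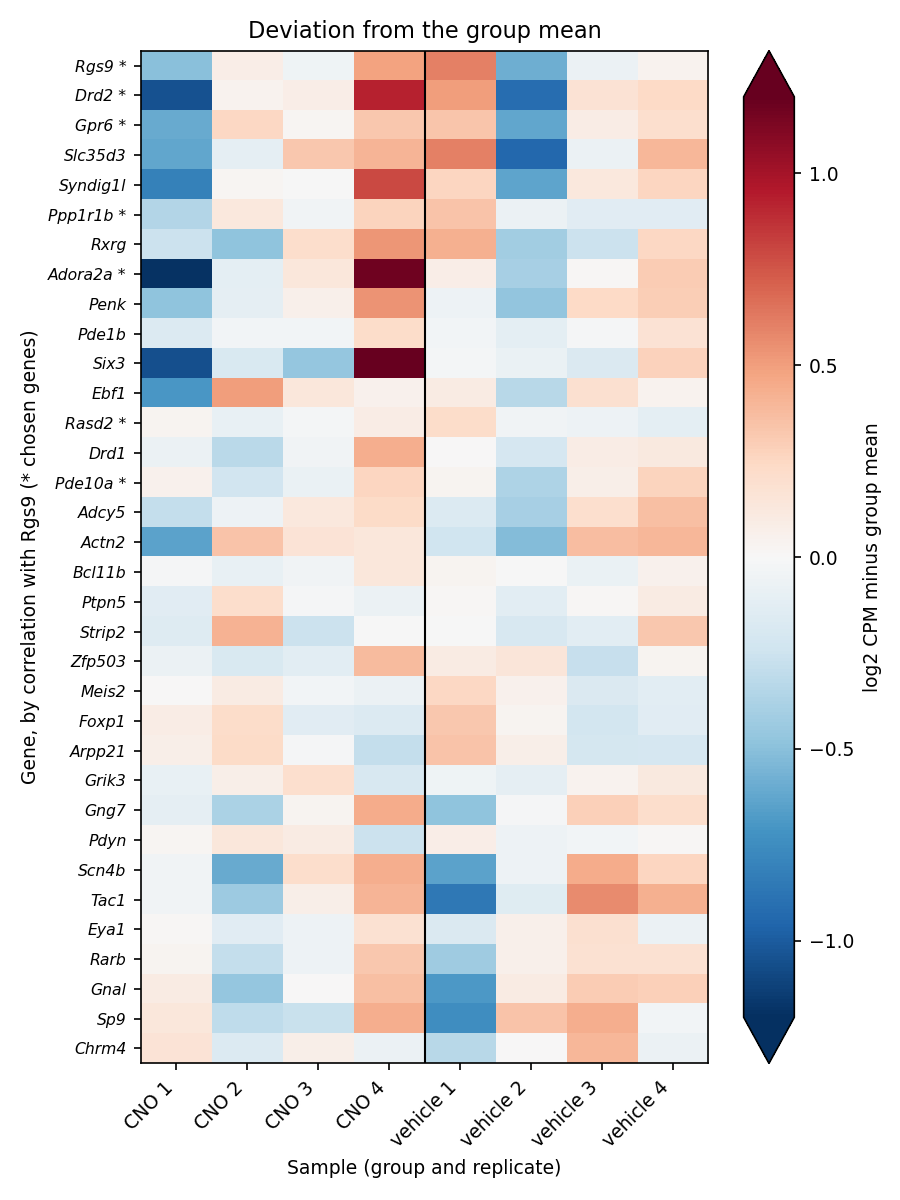
Deviation of the log2 CPM of each sample from its group mean for the 7 chosen genes (asterisk) and the 27 other striatal genes (red above, blue below the mean), sorted from top to bottom by correlation with *Rgs9*. In the upper rows CNO replicate 1 and vehicle replicate 2 are blue and CNO replicate 4 is red, and in the lowest rows vehicle replicate 1 is blue.

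**Figure D4:**
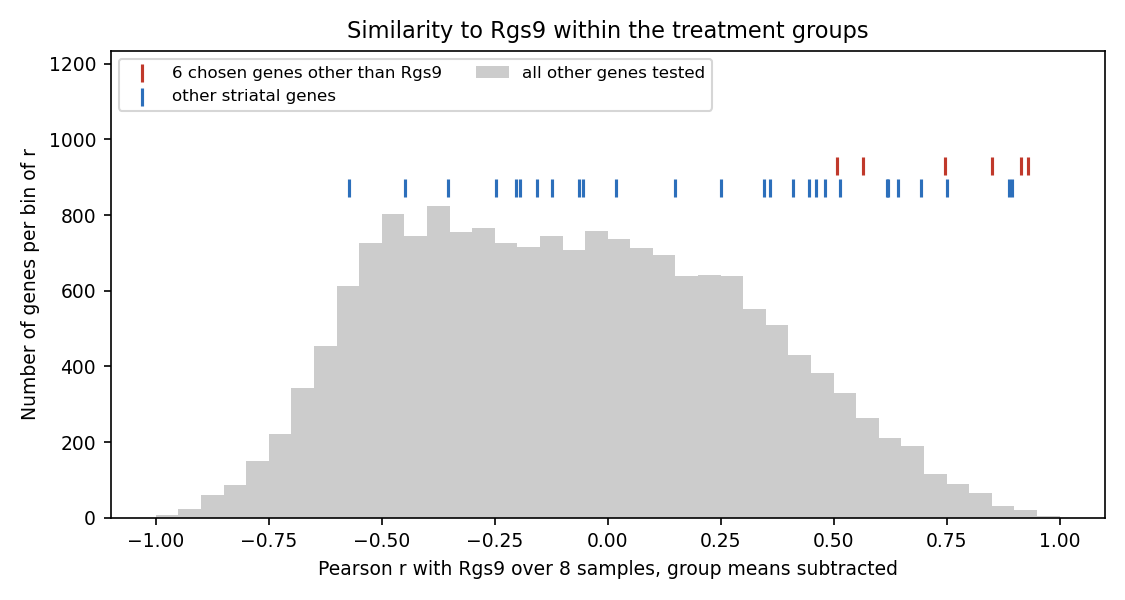
Number of tested genes (grey bars) by Pearson r of their within-group deviations with those of *Rgs9* over 8 samples, with marks for the 6 other chosen genes (red) and the 27 other striatal genes (blue). The red marks lie between 0.51 and 0.93, whereas the blue marks run from -0.57 to 0.89.

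As a single value per sample, the mean deviation of the 27 other striatal genes correlated with that of *Rgs9* with Pearson's r = 0.55 (exact permutation within groups over 576 orders, p = 0.203) and Spearman's rho = 0.45 (exact permutation p = 0.295). The adjusted p over the 8 lists compared was 0.406 for r and 0.508 for rho. Without the 2 samples whose deviation of *Rgs9* from the group mean lay farthest from the median deviation, vehicle replicates 1 and 2, r was 0.85. The markers listed for cholinergic interneurons, a rare cell type of striatum that cortex also holds in part, are shared by cholinergic neurons of the basal forebrain. These markers gave r = 0.84 (exact permutation p = 0.0208, adjusted 0.167) and rho = 0.83 (exact permutation p = 0.0278, adjusted 0.222), and r = 0.79 without the same 2 samples. This list rested on *Chat* and *Slc5a7*, with 9 to 40 and 4 to 43 counts, and its correlation did not pass the adjustment. With the untested *Slc18a3* included, its summed level was 0.334 to 0.820 TPM in CNO and 0.394 to 1.47 TPM in vehicle samples. It was lowest in CNO replicate 1 and vehicle replicate 2.

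Other cell types were compared in the same way. The mean of 9 PV+ interneuron markers was 0.52 higher in CNO samples on the log2 scale (exact permutation p = 0.257, adjusted 0.457), with summed levels of 2515 to 3903 TPM in CNO and 1164 to 3106 TPM in vehicle samples. The lowest value belonged to vehicle replicate 1, the sample with most *Rgs9*. Its correlation with *Rgs9* was r = -0.50 (exact permutation p = 0.295, adjusted 0.472), and r = 0.06 without vehicle replicates 1 and 2. With the PV+ minus pyramidal marker index as a covariate, the log2 fold change of *Rgs9* was -0.78 and the median of the 7 genes -0.50. In that fit 21 of the 27 other striatal genes were lower, and the share of all genes lower was not determined. The index was -0.18 in vehicle replicate 1 and 1.11 to 2.27 in the other samples. The differences in the other lists were -0.22 for cholinergic interneurons, -0.21 for oligodendrocytes, -0.14 for layer 6 corticothalamic cells, -0.12 for pyramidal cells, -0.08 for astrocytes and -0.06 for thalamus (exact permutation p between 0.229 and 0.714). Correlations with *Rgs9* were 0.66 for layer 6, 0.62 for thalamus, 0.37 for astrocytes, 0.28 for oligodendrocytes and -0.07 for pyramidal cells (exact permutation p between 0.113 and 0.875). In the layer 6 list all 5 genes had positive r, with a median of 0.59 and 1 above 0.7. Of these 5, 4 were lower in CNO, against 49.6% of all genes. By the quasi-likelihood test, 2 of them were lower at an unadjusted p under 0.05, against 2.65% of all genes. The part of any of these cell types in the level of *Rgs9* was not tested.

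The nearest relatives of the 7 genes gave a further comparison. *Drd1* and *Pde1b* stood on this list and among the other striatal genes, so the lists overlap. Of 32 relatives 29 passed the filter, and 18 were lower and 11 higher in CNO, and the median log2 fold change was -0.08. None passed an adjusted p under 0.05 with any of the 3 count tests. At an unadjusted p under 0.05 by the quasi-likelihood test, 1 was lower (2.65% of all genes) and 2 were higher (1.44% of all genes). None had r with *Rgs9* above 0.7. In the R7 family, *Rgs7* was lower in every CNO sample, at 88.0 to 90.5 CPM against 93.1 to 101.5 CPM (1 of 3 such relatives, against 1.63% of all genes), a log2 fold change of -0.12 with a standard error of 0.079. *Rgs6* had -0.29, *Rgs11* 0.03 and *Gnb5*, the partner subunit that R7 proteins need for stability, 0.06. The retinal anchor gene *Rgs9bp* reached 0.152 TPM at most and was not tested, whereas the neuronal anchor gene *Rgs7bp* had a mean of 93.6 TPM and a log2 fold change of 0.14.

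Among the relatives of *Pde10a*, *Pde4b* was lower in every CNO sample, at 72.2 to 94.5 CPM against 95.5 to 122.8 CPM (log2 fold change -0.37). *Pde8b* was also lower in every CNO sample, at 99.5 to 106.8 CPM against 108.1 to 119.1 CPM (-0.15), as were 1.63% of all genes. *Rasd1*, the closest relative of *Rasd2* and a dexamethasone-inducible gene, went the other way at 2.99 to 3.91 CPM in CNO and 1.63 to 2.80 CPM in vehicle samples (0.53), without overlap (0.789% of all genes), and deviated against *Rgs9* within groups (r = -0.64). *Gpr3*, a relative of *Gpr6*, had 0.35. The adenosine receptor gene *Adora1* reached a mean of 122 TPM with a log2 fold change of -0.15, and *Drd3* had 1 count in each of CNO replicates 1 and 2 and 0 counts elsewhere. The relatives with most TPM, *Rheb* at 287, *Pde4a* at 173 and *Gnb5* at 141, had log2 fold changes between 0.06 and 0.13.

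By the same measure, the tested genes with a mean TPM above 1 whose deviations were most like those of *Rgs9* were *Tbl2* (r = 0.98), *Ybx2* (0.96), *Sf3b3* (0.96), *Trmt10a* (0.95) and *Gm37240* (0.94), each over 8 samples. None of these 5 was on the striatal lists. *Drd2* ranked 11 and *Gpr6* 18 of 17494 genes, *Ppp1r1b* 56, *Adora2a* 222, *Rasd2* 907 and *Pde10a* 1267.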

How the data were processed

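Reads had been quality-trimmed (Trim Galore), mapped to GRCm38 (STAR) and quantified per gene (Salmon) by the authors, who deposited estimated counts per gene, without normalization, and TPM, which are scaled for transcript length and depth. Strandedness of the libraries is not given in the sources used here. Estimated counts were rounded, and a gene was left out where 4 or more samples had fewer than 10 counts. All remaining genes entered one fit in edgeR 4.0.16 (R 4.3.3), with TMM scaling, the quasi-likelihood test and Benjamini-Hochberg adjustment, in place of the authors' robust dispersion, which was an alternative beside DESeq2 1.42.0 and limma 3.58.1 on log2 TPM. Single-sample log2 CPM used a prior count of 2. CNO minus vehicle means of lists were compared by two-sided exact permutation. The labels name no batch. The methods call the samples biological replicates. P-values measure the spread between these pooled samples, and count floors cover counting error only. Gene positions came from GENCODE release M21.

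The 7 genes and all lists (other striatal genes, relatives, and markers of PV+ interneurons, pyramidal cells, layer 6 corticothalamic cells, oligodendrocytes, astrocytes, cholinergic interneurons and thalamus) were chosen with earlier results of these data known. Named are the 7 genes, genes of the lists without overlap between groups, with most TPM or near 0 counts, the 5 genes most like *Rgs9*, and *Fos*; others were named after their values were seen. A further striatal gene is not reported here.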

Additional observations from a re-analysis of the deposited data

Results flagged for a closer look

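In 30 groups of 4 samples examined for a sample far from the rest, 4 had one, where chance gives about 1 in 20 groups, or 1.5. *Ppp1r1b* stood at 6.97 log2 CPM in vehicle replicate 1, against 6.48 to 6.55 in the other vehicle samples. In the same sample the mean of the PV+ interneuron markers was 5.72 log2 CPM, against 7.08 to 7.30. The mean of the cholinergic markers was -2.25 log2 CPM in CNO replicate 1, against -1.003 to -0.90 in the other CNO samples. In vehicle replicate 2 it was -2.26 log2 CPM, against -0.78 to -0.56 in the other vehicle samples. These 3 samples are also those with the highest, the lowest CNO and the lowest vehicle level of *Rgs9*, and the cause was not tested.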

How the results depend on the processing

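The 7 genes had a log2 fold change below 0 in all 126 values over 18 alternatives. Ranges were -1.17 to -0.59 for *Rgs9*, -1.46 to -0.62 for *Adora2a*, -0.84 to -0.01 for *Drd2*, -0.96 to -0.49 for *Gpr6*, -0.58 to -0.32 for *Pde10a*, -0.64 to -0.30 for *Ppp1r1b* and -0.24 to -0.10 for *Rasd2*. The value nearest 0 came without replicate 1 of both groups, a choice made after seeing the data, for 6 of these genes, and without vehicle replicate 4 for *Pde10a*. Leaving out single samples gave medians of the 7 genes from -0.84 to -0.42. The number of genes with an adjusted p under 0.05 was 15 with robust dispersions, 11 with DESeq2, 4 without the filter, 1 without replicate 1 of both groups and 0 to 2 with single samples left out (2 without CNO replicate 1), and with all 3 cut-offs 12, 10, 4, 1 and 0 to 2. None of the 27 other striatal genes was called under any of these, and 15 to 19 were lower with single samples left out, and 21 with the PV+ minus pyramidal marker index as a covariate. Their mean difference ran from -0.22 to -0.07 (exact permutation p between 0.114 and 0.543 over all alternatives). Their median r with *Rgs9* was 0.49 in log2(TPM + 1), 0.24 as Spearman's rho, and 0.19 (without vehicle replicate 2) to 0.47 (without vehicle replicate 1) with single samples left out. Replicate numbers were not taken as pairs, since same-numbered deviations correlated at 0.03, -0.03, 0.16 and 0.24 and 2 of 8 samples correlated best with their own number. With a replicate block, 0 genes were called, the median of the 7 genes was -0.54 and 17 of the other striatal genes were lower. The cause of these movements was not tested. Counts under 50 limit the receptor genes in CNO replicate 1.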
